A study of Homo sapiens with 9 samples.

Results

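Transcripts of the mitochondrial SLC25 carriers were examined in HCT116, a human colon carcinoma cell line, by RNA-seq of cells with and without catalytically active HUWE1. HUWE1 is a very large E3 ubiquitin ligase whose HECT domain passes ubiquitin to substrates through a catalytic cysteine. Rows of the count table were taken by symbol alone, as SLC25A followed by a number, without use of any measured value. The rule found 37 of 11350 genes. Of these, 36 encode carriers and 1, SLC25A25-AS1, is an antisense RNA from the locus of SLC25A25 and encodes none. Family proteins with other symbols were not taken as members, and 3 of them are described at the end. Of the 3 lines, HUWE1-P was parental HCT116, HUWE1-WT had the catalytic cysteine codon of its own HUWE1 gene replaced by a cysteine codon as a control for the editing, and HUWE1-CS had it replaced by a serine codon. Both edited lines were made by CRISPR with a repair template that also carried a blasticidin resistance gene, were selected with puromycin and blasticidin and were grown from single cells, and all 3 lines were untreated. There were 3 libraries of each line. Whether the 3 libraries of a line came from 1 clone or several was not stated in the sources used here, so the p-values measure the spread between these libraries, and a difference between clones cannot be told apart from the effect of the codon.

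Carriers of the SLC25 family are small membrane proteins, most of which sit in the inner mitochondrial membrane and exchange one solute for another between matrix and cytosol. They are encoded in the nucleus, made in the cytosol and inserted into the inner membrane by the TIM22 complex. The ADP/ATP carriers send ATP out against ADP and the phosphate carrier supplies phosphate for ATP synthesis, while other members carry citrate, malate, oxoglutarate, amino acids, cofactors, nucleotides, acylcarnitines or iron. A few members lie elsewhere, such as SLC25A17 in peroxisomes and SLC25A46 in the outer membrane.

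Transcripts of 5 members were called different in HUWE1-CS cells from both control lines at an FDR of at most 0.01 in edgeR. SLC25A6, SLC25A5 and SLC25A11 were higher, and SLC25A24 and SLC25A29 were lower. In each comparison 16.2% of members were called, beside 17.0% of all genes against HUWE1-P and 15.5% against HUWE1-WT. The share of all genes called in both was not counted, so the 5 members called in both cannot be set beside it. By DESeq2, SLC25A5 and SLC25A6 were called in both comparisons, SLC25A11 and SLC25A29 in 1 each and SLC25A24 in neither. The 250 bases before the annotated start of these 5 genes are shown because they are the DNA upstream of the transcripts that moved. They are RefSeq windows on GRCh38.p14, written 5′ to 3′ on the strand of the gene. Capitals mark the motifs searched on both strands, with overlapping matches merged. The GC box was searched as GGGCGG and the CCAAT box by the letters of its name. The TATA box was searched as TATAAA. The E-box bound by MYC and related factors was searched as CACGTG. The motif of ETS factors was searched as CCGGAAG, and a part of the motif of NRF-1, a regulator of nuclear genes for mitochondria, was searched as TGCGCA. The windows lie at chrX:1392114-1392363 (minus strand, in the pseudoautosomal region that X shares with Y), chrX:119468194-119468443 (plus), chr17:4940047-4940296 (minus), chr1:108200344-108200593 (minus, the upstream one of 2 listed starts) and chr14:100306445-100306694 (minus).
SLC25A6: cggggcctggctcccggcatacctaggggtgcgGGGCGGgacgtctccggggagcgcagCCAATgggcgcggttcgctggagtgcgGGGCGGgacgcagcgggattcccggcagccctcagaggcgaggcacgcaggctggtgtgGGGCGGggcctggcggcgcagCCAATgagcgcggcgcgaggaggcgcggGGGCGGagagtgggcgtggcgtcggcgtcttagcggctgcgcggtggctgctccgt
SLC25A5: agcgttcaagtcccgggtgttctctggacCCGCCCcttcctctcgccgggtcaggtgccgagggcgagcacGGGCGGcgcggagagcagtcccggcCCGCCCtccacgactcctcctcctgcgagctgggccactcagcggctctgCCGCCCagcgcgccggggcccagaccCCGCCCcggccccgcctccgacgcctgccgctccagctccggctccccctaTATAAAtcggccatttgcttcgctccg
SLC25A11: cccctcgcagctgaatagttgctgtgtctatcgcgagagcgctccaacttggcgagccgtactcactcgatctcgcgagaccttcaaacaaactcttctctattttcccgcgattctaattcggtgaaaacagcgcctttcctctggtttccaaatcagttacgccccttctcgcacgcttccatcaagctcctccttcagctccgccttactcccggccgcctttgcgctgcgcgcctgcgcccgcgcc
SLC25A24: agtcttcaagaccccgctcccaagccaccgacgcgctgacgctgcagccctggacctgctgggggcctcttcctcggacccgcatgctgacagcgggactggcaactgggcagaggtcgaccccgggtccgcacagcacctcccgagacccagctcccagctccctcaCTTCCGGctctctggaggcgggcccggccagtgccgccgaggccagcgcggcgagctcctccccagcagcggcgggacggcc
SLC25A29: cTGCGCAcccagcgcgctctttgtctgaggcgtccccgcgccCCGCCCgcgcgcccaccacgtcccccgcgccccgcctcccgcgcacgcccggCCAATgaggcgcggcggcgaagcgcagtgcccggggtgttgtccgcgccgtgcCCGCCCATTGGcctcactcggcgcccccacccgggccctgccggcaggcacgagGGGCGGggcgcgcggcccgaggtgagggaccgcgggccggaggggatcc
The window of SLC25A6 held 4 GC boxes and 2 CCAAT boxes, that of SLC25A5 held 5 GC boxes and 1 TATA box, and that of SLC25A29 held 3 GC boxes, 2 CCAAT boxes and 1 match to the part of the NRF-1 motif. The window of SLC25A24 held only an ETS motif, and that of SLC25A11 matched none of the letters searched. No motif was therefore found in all 3 windows of the members that were higher, and none was shared by both windows of the members that were lower. Of the 37 members, 32 had a window, and 22 of these (68.8%) held a GC box, beside 70.2% of the 9041 windows of genes in the table and 42.3% of all 27305 windows. CCAAT was found in 46.9% of member windows, 35.5% of those of table genes and 33% of all windows. For the TATA box these shares were 6.25%, 4.58% and 11.1%, for the E-box 18.8%, 9.35% and 6.49%, for the ETS motif 21.9%, 17.3% and 8.82%, and for the part of the NRF-1 motif 9.38%, 12.2% and 7.05%. A match is a description of the letters and not a binding site.

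The libraries held 1610984 to 2060349 counts, so that 3 counts corresponded to between 1.46 and 1.86 CPM, and counting error limits the members of few counts. HUWE1 transcripts were at 522 to 561 CPM in HUWE1-P, 453 to 498 in HUWE1-WT and 323 to 345 in HUWE1-CS cells, which describes the level of the edited gene but not its codon. In HUWE1-CS cells HUWE1 was called lower by edgeR against HUWE1-P (log2 fold change -0.69, adjusted p = 1.06e-15) and against HUWE1-WT (-0.48, adjusted p = 4.68e-09). All 5 epithelial markers listed had a row, with a summed level of 4093 to 4217 CPM in HUWE1-P, 4117 to 4511 in HUWE1-WT and 3643 to 4015 in HUWE1-CS cells. EPCAM and CDH1 were called higher in HUWE1-CS cells and KRT8 and KRT18 lower. Of 10 markers of fibroblasts, leukocytes, endothelium and erythroid cells, 1 had a row, COL1A1, at 18.0 to 25.6 CPM in the control libraries and 8.71 to 14.8 CPM in HUWE1-CS cells. The part of these differences in the results on the carriers was not tested. Transcripts of the mitochondrial genome took 0.691 to 1.40% of the counts in the 6 control libraries and 0.831 to 1.08% in HUWE1-CS libraries, so that these ranges overlapped.

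The 37 members together took 0.388, 0.385 and 0.375% of all counts in HUWE1-P replicates, 0.384, 0.404 and 0.391% in HUWE1-WT replicates and 0.421, 0.445 and 0.421% in HUWE1-CS replicates. All HUWE1-CS libraries lay above all 6 controls. Without SLC25A5 and SLC25A6 the shares were 0.259 to 0.266% in HUWE1-P, 0.263 to 0.277% in HUWE1-WT and 0.265 to 0.276% in HUWE1-CS cells and overlapped. A few genes held most of the counts. SLC25A3, SLC25A6, SLC25A5 and SLC25A39 took 59.0 to 60.0% of the SLC25 counts in the control libraries and 62.6 to 65.0% in HUWE1-CS libraries. Levels of different genes can be compared only per length. On the scale of mean CPM per kb of the canonical GENCODE transcript in HUWE1-P cells, SLC25A6 stood at 482, SLC25A5 at 384, SLC25A39 at 217, SLC25A3 at 121 and SLC25A1 at 95.2, while SLC25A21 stood at 1.26 and SLC25A25-AS1 at 1.03. The canonical transcript of SLC25A3 is 5984 bases long, far longer than the 1307 of SLC25A5 or the 1451 of SLC25A6, and the value per kb depends on that choice. Counts of single members in a library ran from 6 to 1938, and 34 of 37 had at least 10 counts in every library.

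**Figure D1:**
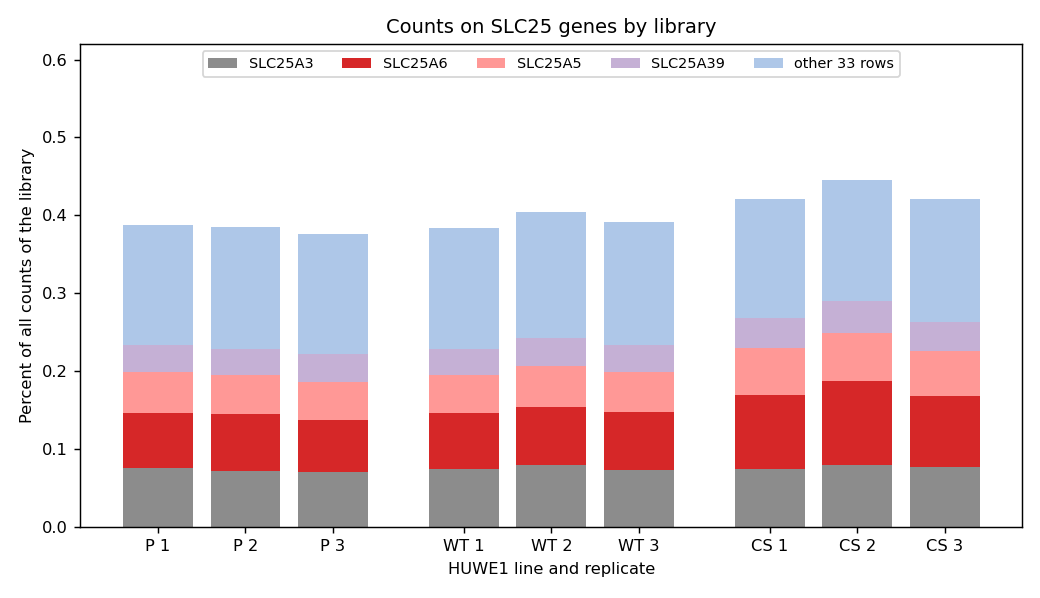
Percent of all counts of each library (vertical axis) that fell on SLC25 genes in the 3 replicates of each HUWE1 line (horizontal axis), with SLC25A3, SLC25A6, SLC25A5 and SLC25A39 stacked apart from the other 33 rows. The HUWE1-CS bars reach 0.421 to 0.445% and the control bars 0.375 to 0.404%, and the segments of SLC25A6 and SLC25A5 are taller in HUWE1-CS libraries.

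In HUWE1-CS against HUWE1-P cells, 6 of 37 members passed the test at an FDR of at most 0.01, where 17.0% of all genes did. SLC25A6, SLC25A11, SLC25A1 and SLC25A5 were higher, 4 members beside 8.46% of all genes, and SLC25A24 and SLC25A29 were lower, 2 members beside 8.58% of all genes. In HUWE1-CS against HUWE1-WT cells 6 members passed, where 15.5% of all genes did. SLC25A6, SLC25A5, SLC25A11 and SLC25A30 were higher (7.42% of all genes were) and SLC25A24 and SLC25A29 lower (8.08% of all genes were). In HUWE1-WT against HUWE1-P cells 0 members passed, beside 0.0617% of all genes. The share of members called, 16.2% in both comparisons of HUWE1-CS, was near that of all genes. By DESeq2, 3 members were called against HUWE1-P (SLC25A5, SLC25A6 and SLC25A11) and 3 against HUWE1-WT (SLC25A5, SLC25A6 and SLC25A29), beside 9.59 and 8.79% of all genes. At an FDR of at most 0.05 in edgeR, 14 and 8 members were called, beside 26.4 and 24.4% of all genes. The comparisons share libraries, so their calls are not independent of each other, and in such bulk samples fewer cells with a transcript and less of it per cell cannot be told apart.

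The members also did not move to one side. The median log2 fold change of the 37 members in HUWE1-CS against HUWE1-P cells was 0.05, beside -0.01 over all genes, with 21 members above and 16 below 0. In HUWE1-CS against HUWE1-WT cells it was -0.05, beside -0.00 over all genes, with 16 members above and 21 below 0. Calls fell on members of many and of few counts. Of the 11 members with a mean of at least 100 counts, 4 were called against HUWE1-P, where 27.2% of the 4348 genes of that depth were, and 3 against HUWE1-WT, where 24.1% were. Of the other 26 members, 2 and 3 were called, beside 10.7 and 10.2% of the 7002 genes with a mean under 100 counts. All HUWE1-CS libraries lay above all 6 control libraries for 7 members (SLC25A1, SLC25A5, SLC25A6, SLC25A11, SLC25A15, SLC25A30 and SLC25A39), as for 12.9% of all genes, and below them for 4 (SLC25A12, SLC25A22, SLC25A24 and SLC25A29), as for 13.4% of all genes.

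**Figure D2:**
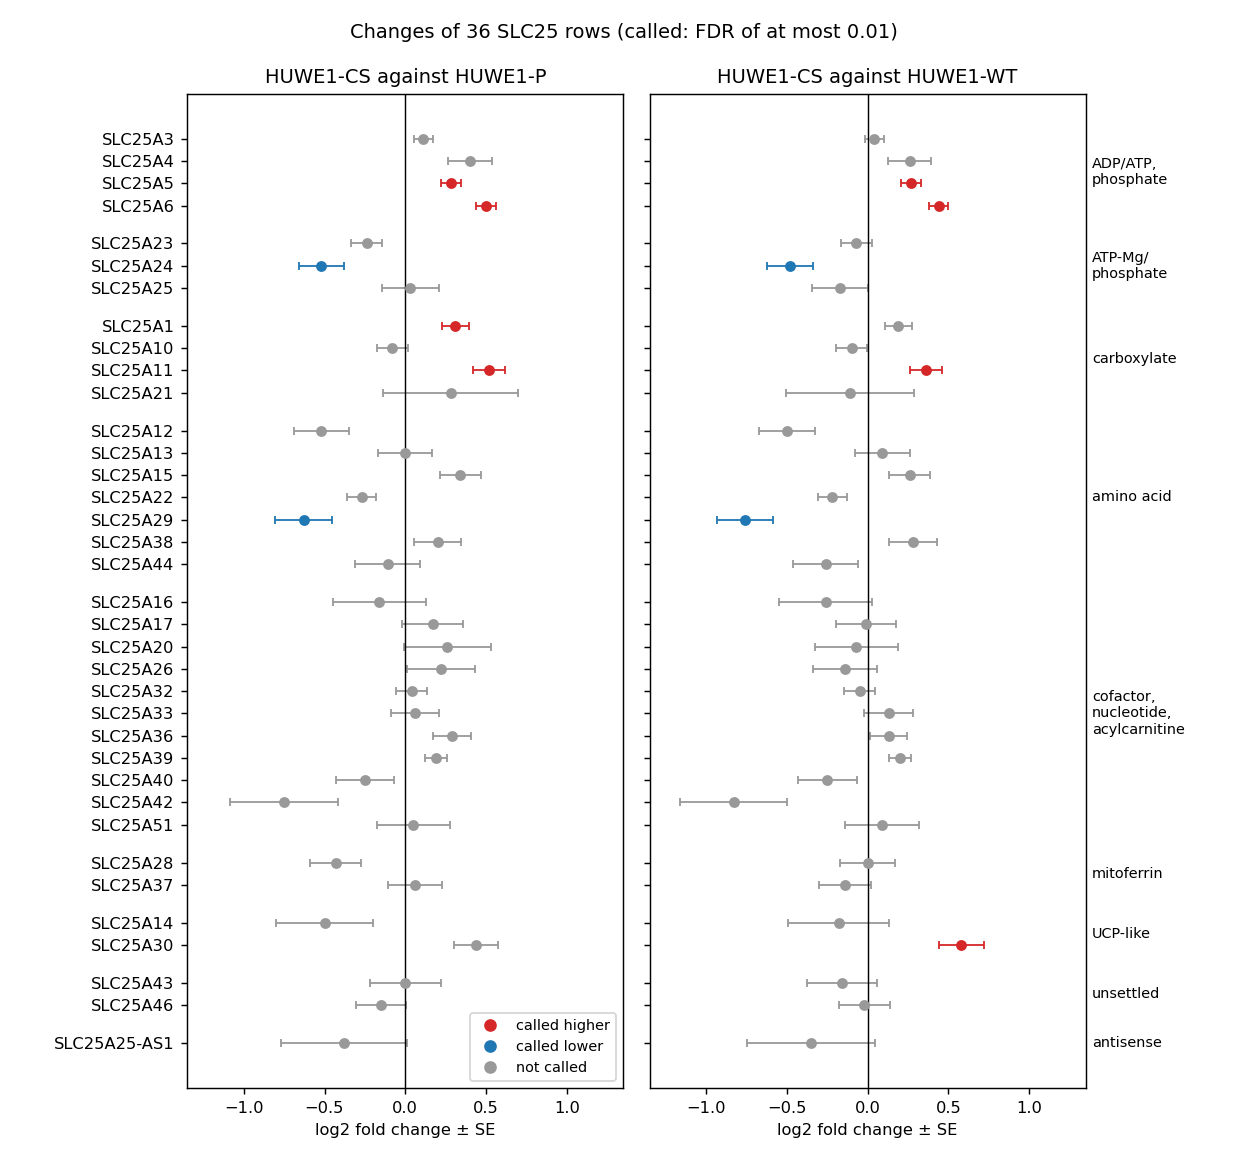
Log2 fold change (horizontal axis, point ± SE from edgeR) of 36 SLC25 rows (vertical axis, grouped by substrate) in HUWE1-CS against HUWE1-P cells on the left and against HUWE1-WT cells on the right, with n = 3 libraries of each line. Red and blue points were called higher and lower and grey points were not called. SLC25A5, SLC25A6 and SLC25A11 are red and SLC25A24 and SLC25A29 blue in both panels, while the cofactor, nucleotide and acylcarnitine carriers and the mitoferrins hold grey points only.

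Among the ADP/ATP carriers, SLC25A6 (ANT3; X:1505045-1511006 on GRCh37, minus strand) and SLC25A5 (ANT2; X:118602385-118605359, plus strand) had higher transcript levels in HUWE1-CS cells than in both control lines. SLC25A6 was at 701, 736 and 659 CPM in HUWE1-P replicates, 706, 736 and 741 CPM in HUWE1-WT replicates and 951, 1099 and 921 CPM in HUWE1-CS replicates. All HUWE1-CS values lay above all controls. The log2 fold change was 0.50 (SE 0.0602, 1.42-fold, adjusted p = 3.90e-11, edgeR) against HUWE1-P and 0.44 (SE 0.0602, 1.36-fold, adjusted p = 3.13e-09) against HUWE1-WT cells, and SLC25A6 was called under all 20 alternative analyses of both comparisons. SLC25A5 was at 525, 487 and 493 CPM in HUWE1-P, 477, 526 and 517 CPM in HUWE1-WT and 610, 631 and 589 CPM in HUWE1-CS libraries. These values did not overlap either. Its log2 fold change was 0.28 (SE 0.0618, adjusted p = 0.000176) against HUWE1-P and 0.27 (SE 0.0619, adjusted p = 0.000469) against HUWE1-WT cells. With the trend with transcript length removed, as described further on, the change against HUWE1-P became 0.16 (adjusted p = 0.0154), past the limit of 0.01, and that against HUWE1-WT 0.17 (adjusted p = 0.00959), which still passed.

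SLC25A4 (ANT1; 4:186064420-186071536), the form known from heart and skeletal muscle, was the least counted of these carriers. It was at 47.8, 41.0 and 50.6 CPM in HUWE1-P, 44, 62.2 and 46.5 CPM in HUWE1-WT and 61.7, 65.8 and 56.3 CPM in HUWE1-CS libraries. A HUWE1-WT library at 62.2 CPM lay among the HUWE1-CS values. The log2 fold change of 0.40 (SE 0.135, adjusted p = 0.0204) against HUWE1-P and 0.26 (SE 0.133, adjusted p = 0.146) against HUWE1-WT cells did not pass. Together these 3 ADP/ATP carriers were at 1247 CPM ± 38.5 (SD, n = 3) in HUWE1-P, 1285 CPM ± 51.3 in HUWE1-WT and 1661 CPM ± 119 in HUWE1-CS cells. SLC25A6 made up 56.0% ± 1.94, 56.6% ± 0.961 and 59.5% ± 1.46 (SD, n = 3) of this sum, with libraries at 54.8 to 58.3% among the controls and 58.6 to 61.2% in HUWE1-CS cells. The coding sequences of SLC25A5 and SLC25A6, both 897 bases or 298 codons before the stop, were identical at 78.8% of positions, and their longest run of identical bases was 29. SLC25A4 shared 77.3% with SLC25A5 and 77.9% with SLC25A6, with runs of at most 14 and 20 bases. The annotation also lists 9 pseudogene copies of SLC25A5 and 6 of SLC25A6, and how reads matching several copies were counted was not given in the sources used here, so the split of counts between genes and copies is uncertain.

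SLC25A3 (12:98987369-99000157), the phosphate carrier, had the highest mean CPM in HUWE1-P cells. It was at 759, 708 and 697 CPM in HUWE1-P, 735, 792 and 731 CPM in HUWE1-WT and 744, 808 and 775 CPM in HUWE1-CS libraries. The lines overlapped. The log2 fold change was 0.11 (95% interval -0.01 to 0.22, adjusted p = 0.192) against HUWE1-P and 0.04 (-0.07 to 0.16, adjusted p = 0.656) against HUWE1-WT cells, intervals that leave out changes as large as those fitted for SLC25A6. With the length trend removed it was called at 0.19 (adjusted p = 0.00364) against HUWE1-P but not at 0.11 (adjusted p = 0.122) against HUWE1-WT cells. That fit takes the canonical length of 5984 bases, and other lengths were not tried.

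**Figure D3:**
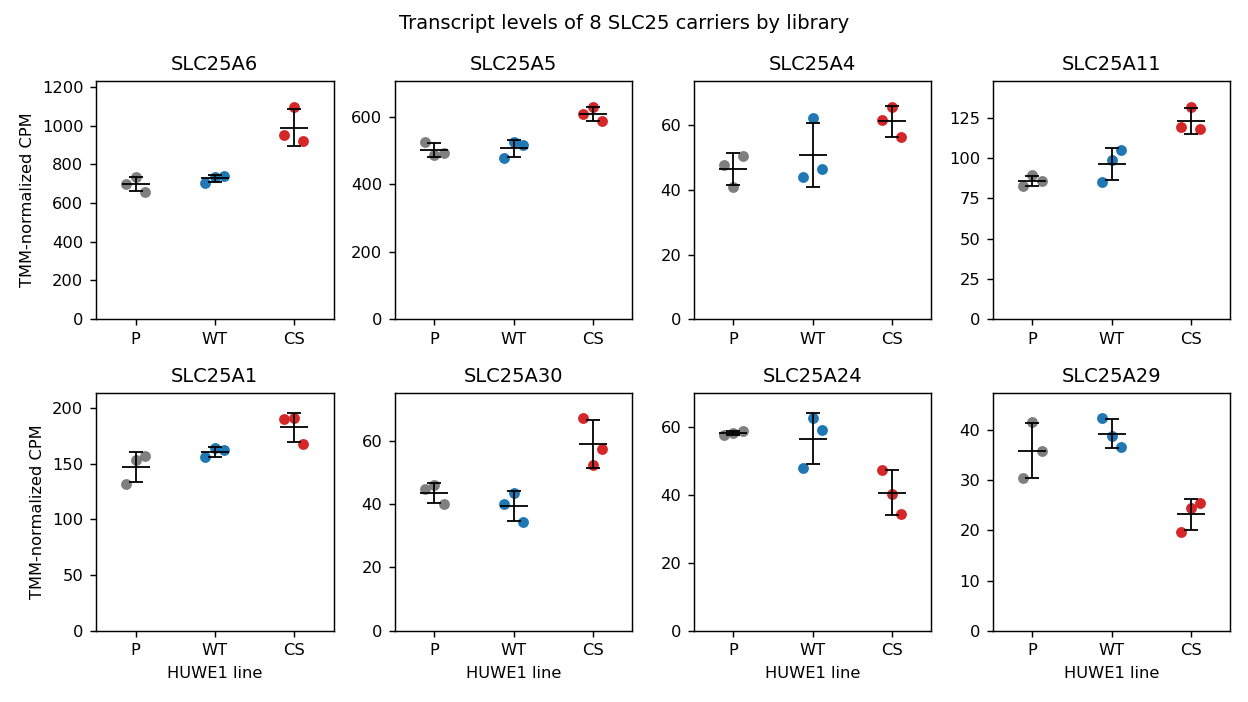
TMM-normalized CPM (vertical axes, starting at 0) of 8 carriers in each library of the 3 HUWE1 lines (horizontal axis), with points for libraries and a black bar for the mean ± SD (n = 3). SLC25A6, SLC25A5, SLC25A11, SLC25A1 and SLC25A30 have all HUWE1-CS points above all control points, SLC25A24 and SLC25A29 have them below, and for SLC25A4 a HUWE1-WT library lies among the HUWE1-CS points.

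Of the 4 carboxylate carriers, 2 were called higher against HUWE1-P and 1 against HUWE1-WT cells, as were 8.46 and 7.42% of all genes. None was called lower. SLC25A11 (17:4840425-4843348), which exchanges malate for oxoglutarate in the malate-aspartate shuttle, was at 82.6, 89.2 and 85.8 CPM in HUWE1-P, 85.2, 98.7 and 105 CPM in HUWE1-WT and 119, 132 and 118 CPM in HUWE1-CS libraries. The HUWE1-CS libraries were the 3 highest of the 9. Its log2 fold change was 0.52 (SE 0.0995, 1.43-fold, adjusted p = 1.86e-05) against HUWE1-P and 0.36 (SE 0.0981, 1.28-fold, adjusted p = 0.00369) against HUWE1-WT cells. It was called under all 20 alternatives against HUWE1-P but under 15 of 20 against HUWE1-WT, where it was not called without HUWE1-WT replicate 1 (0.28, adjusted p = 0.052) or HUWE1-CS replicate 2 (0.31, adjusted p = 0.0302). SLC25A1 (22:19163094-19166252), the citrate carrier that exports citrate for fatty acid synthesis, was at 132, 153 and 157 CPM in HUWE1-P, 156, 164 and 162 CPM in HUWE1-WT and 190, 191 and 168 CPM in HUWE1-CS libraries. Its HUWE1-CS values lay above all controls, and the ranges of the control lines overlapped. It was called against HUWE1-P at 0.31 (SE 0.0827, adjusted p = 0.0028) and not against HUWE1-WT at 0.19 (SE 0.0821, adjusted p = 0.0809). The call was lost without HUWE1-P replicate 1 (0.24, adjusted p = 0.0496), HUWE1-CS replicate 1 (0.28, adjusted p = 0.0218) or HUWE1-CS replicate 2 (0.28, adjusted p = 0.0152), and with the length trend removed (0.21, adjusted p = 0.0386). SLC25A10, the dicarboxylate carrier, stood at log2 fold changes of -0.08 and -0.10 against HUWE1-P and HUWE1-WT. SLC25A21, the carrier of longer dicarboxylates, had 6 to 14 counts in a library, too few to show a change of the size seen for the others (SE 0.417 and 0.396).

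The ATP-Mg/phosphate carriers are gated by calcium and adjust the adenine nucleotide pool of the matrix. Of these, 1 of 3 was called in each comparison, SLC25A24, where 17.0 and 15.5% of all genes were called. SLC25A24 (1:108676665-108743471) was at 57.7, 58.4 and 58.8 CPM in HUWE1-P, 48.1, 62.7 and 59.3 CPM in HUWE1-WT and 47.5, 40.3 and 34.3 CPM in HUWE1-CS libraries. The highest HUWE1-CS library and the lowest HUWE1-WT library were close to each other, but the ranges did not overlap. Its transcripts were lower by a log2 fold change of -0.52 (SE 0.139, 0.697-fold, adjusted p = 0.00236) against HUWE1-P and -0.48 (SE 0.14, 0.716-fold, adjusted p = 0.00616) against HUWE1-WT cells. These calls did not hold when some single libraries were left out, which also leaves fewer libraries to test. Against HUWE1-P the call was lost without HUWE1-P replicate 3 (-0.51, adjusted p = 0.0116), HUWE1-CS replicate 2 (-0.51, adjusted p = 0.0119) or HUWE1-CS replicate 3 (-0.40, adjusted p = 0.0422). Against HUWE1-WT it was lost without HUWE1-WT replicate 2 (-0.40, adjusted p = 0.0616), HUWE1-WT replicate 3 (-0.45, adjusted p = 0.0316), HUWE1-CS replicate 2 (-0.47, adjusted p = 0.0238) or HUWE1-CS replicate 3 (-0.37, adjusted p = 0.0771). SLC25A23 was at 121 to 134 CPM in HUWE1-P, 112 to 113 CPM in HUWE1-WT and 103 to 116 CPM in HUWE1-CS libraries, with log2 fold changes of -0.24 (adjusted p = 0.0453) and -0.07 (adjusted p = 0.675). SLC25A25 was at 24.1 to 32.3, 29.6 to 36.6 and 23.2 to 31.8 CPM and stood at 0.03 and -0.17, with the former below 0 without HUWE1-P replicate 3, HUWE1-CS replicate 1 or HUWE1-CS replicate 2. Its antisense neighbour SLC25A25-AS1, whose annotated gene overlaps it by 665 bases, had 7 to 15 counts in a library and stood at -0.38 and -0.35 (SE 0.392 and 0.396). Use of strand in counting was not given in the sources used here, so reads of the overlap cannot be assigned to either.

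Among 7 amino acid carriers, 1 was called, SLC25A29, in both comparisons, where 17.0 and 15.5% of all genes were called. SLC25A29 (14:100757453-100772884), which carries basic amino acids such as arginine and lysine, was at 30.4, 41.5 and 35.7 CPM in HUWE1-P, 42.3, 38.7 and 36.6 CPM in HUWE1-WT and 19.6, 24.4 and 25.5 CPM in HUWE1-CS libraries. All HUWE1-CS libraries were below all controls. The log2 fold change was -0.63 (SE 0.174, 0.645-fold, adjusted p = 0.00337) against HUWE1-P and -0.76 (SE 0.172, 0.593-fold, adjusted p = 0.000372) against HUWE1-WT cells, the farthest from 0 among the called members. It was called under all 20 alternatives against HUWE1-WT, but against HUWE1-P not without HUWE1-P replicate 2 (-0.52, adjusted p = 0.0413), HUWE1-P replicate 3 (-0.64, adjusted p = 0.0121) or HUWE1-CS replicate 1 (-0.53, adjusted p = 0.036). SLC25A12, an aspartate/glutamate carrier of the malate-aspartate shuttle, was at 31.4 to 36.1 CPM in the controls and 22.7 to 25.0 CPM in HUWE1-CS libraries, and its log2 fold changes of -0.52 (adjusted p = 0.0163) and -0.50 (adjusted p = 0.0244) did not pass. Its paralogue SLC25A13 stood at -0.00 and 0.09. The gene of SLC25A12 overlaps that of HAT1 on the opposite strand by 69643 bases, and reads of the overlap may come from either gene. SLC25A22, a glutamate carrier, was at 135 to 156 CPM in the controls and 115 to 130 CPM in HUWE1-CS libraries, with -0.27 (adjusted p = 0.0148) and -0.22 (adjusted p = 0.0611). SLC25A15, the ornithine carrier of the urea cycle, was at 47.7 to 56.4 CPM in the controls and 59.3 to 67.9 CPM in HUWE1-CS libraries, with 0.34 (adjusted p = 0.0355) and 0.26 (adjusted p = 0.136). SLC25A38, the glycine carrier needed for haem synthesis, stood at 0.20 and 0.28, and SLC25A44, a carrier of branched-chain amino acids, at -0.11 and -0.26.

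SLC25A30, a member related to the uncoupling proteins, was called only against HUWE1-WT cells. SLC25A30 (13:45967451-45992590) was at 44.7, 46.0 and 40.0 CPM in HUWE1-P, 40.0, 43.6 and 34.3 CPM in HUWE1-WT and 67.1, 52.2 and 57.5 CPM in HUWE1-CS libraries. All HUWE1-CS values were above all controls. Its log2 fold change was 0.58 (SE 0.14, 1.49-fold, adjusted p = 0.000841) against HUWE1-WT and 0.44 (SE 0.136, 1.36-fold, adjusted p = 0.0102) against HUWE1-P cells, just outside the limit. It was called in the latter comparison under 9 of 20 alternatives, among them without HUWE1-WT replicate 1 (0.44, adjusted p = 0.00937), HUWE1-WT replicate 2 (0.45, adjusted p = 0.00813) or HUWE1-CS replicate 2 (0.53, adjusted p = 0.00497). The call against HUWE1-WT was lost without HUWE1-WT replicate 3 (0.49, adjusted p = 0.0163) or HUWE1-CS replicate 1 (0.48, adjusted p = 0.0206). The gene overlaps the antisense RNA TPT1-AS1 on the opposite strand by 24660 bases. Since use of strand in counting was not given, reads of the overlap may come from either gene. SLC25A14, its relative, had 11 to 25 counts in a library and stood at -0.50 (SE 0.298) and -0.18 (SE 0.315).

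The mitoferrins import iron for haem and iron-sulphur cluster synthesis, and neither was called by edgeR, DESeq2 or limma-voom. SLC25A28 (mitoferrin-2; 10:101370276-101382550) was at 43.4, 39.3 and 43.4 CPM in HUWE1-P, 26.7, 32.2 and 34.3 CPM in HUWE1-WT and 26.1, 32.9 and 34.3 CPM in HUWE1-CS libraries. The HUWE1-WT and HUWE1-CS values coincided, and both lay below HUWE1-P. The log2 fold change was -0.43 (SE 0.157, adjusted p = 0.0308) in HUWE1-CS and -0.44 (SE 0.157, adjusted p = 0.674) in HUWE1-WT against HUWE1-P cells, and 0.00 (SE 0.169) between the edited lines. P-values were adjusted within each comparison. The value of 0.00 was below 0 in some alternatives, among them without HUWE1-WT replicate 1 (-0.09), HUWE1-CS replicate 2 (-0.03) or HUWE1-CS replicate 3 (-0.06). With the length trend removed SLC25A28 passed against HUWE1-P, at -0.53 (adjusted p = 0.00581). SLC25A37 (mitoferrin-1) was at 29.2 to 40.0 CPM in all libraries and stood at 0.06 and -0.14.

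None of the 12 carriers of cofactors, nucleotides and acylcarnitines was called in either comparison by edgeR, DESeq2 or limma-voom, and 3 and 2 had an unadjusted p under 0.05 in edgeR, where 36.1 and 35.0% of all genes did. Their log2 fold changes lay between -0.75 and 0.29 against HUWE1-P and between -0.83 and 0.20 against HUWE1-WT, with medians of 0.06 and -0.03. SLC25A39 (17:42396993-42402238), which brings glutathione into mitochondria, was the nearest to the limit in HUWE1-CS against HUWE1-WT cells among members not called. It was at 344, 337 and 350 CPM in HUWE1-P, 328, 358 and 338 CPM in HUWE1-WT and 381, 420 and 373 CPM in HUWE1-CS libraries. The HUWE1-CS libraries were above all controls, and the log2 fold changes were 0.19 (SE 0.0663, adjusted p = 0.0262) and 0.20 (SE 0.0666, adjusted p = 0.0203). Its paralogue SLC25A40 was at -0.25 in both comparisons (SE 0.182 and 0.183). SLC25A42, a coenzyme A carrier, had the lowest values of all members, -0.75 (SE 0.334) and -0.83 (SE 0.332), from 8 to 31 counts in a library. SLC25A36, a pyrimidine nucleotide carrier, had the highest value of this group against HUWE1-P, 0.29 (adjusted p = 0.0547). The others that are reported, which were SLC25A16, SLC25A17, SLC25A20 (acylcarnitines), SLC25A26 (S-adenosylmethionine), SLC25A32 (folate and FAD), SLC25A33 (pyrimidine nucleotides) and SLC25A51 (NAD), stood between -0.16 and 0.26 against HUWE1-P and between -0.26 and 0.13 against HUWE1-WT. The members of unsettled substrate, SLC25A43 and SLC25A46, stood between -0.16 and -0.00 in both comparisons.

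In HUWE1-WT against HUWE1-P cells none of the 37 members passed, and their log2 fold changes lay between -0.44 and 0.39 with a median of 0.06, beside -0.00 over all genes. At an unadjusted p under 0.05 in edgeR there was 1 member, SLC25A28, or 2.70% beside 5.54% of all genes, and DESeq2 and limma-voom called 0 members as well. The 7 members called in either comparison of HUWE1-CS stood between -0.14 and 0.16 here.

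Changes in HUWE1-CS cells followed transcript length over all genes, and this touches the members. With genes in 8 bins of equal number by length of the canonical transcript, the median log2 fold change against HUWE1-P went from 0.16 in the shortest bin, of at most 1417 bases, to -0.14 in the longest, of at least 6990 bases. Against HUWE1-WT it went from 0.15 to -0.08, and between the controls from 0.03 to -0.06. SLC25A5 (1307 bases), SLC25A6 (1451), SLC25A1 (1548) and SLC25A11 (1692), the members called higher against HUWE1-P, all had transcripts under the member median of 3141 bases. SLC25A24 (4249 bases) and SLC25A29 (2291 bases), which were called lower, lay on either side of it. After a smooth trend with length was removed from each library, SLC25A6 stood at 0.40 (adjusted p = 2.25e-10) and SLC25A11 at 0.44 (adjusted p = 0.000195) against HUWE1-P, and SLC25A24 at -0.48 (adjusted p = 0.00512) and SLC25A29 at -0.67 (adjusted p = 0.00159). Against HUWE1-WT, SLC25A6 stood at 0.36 (adjusted p = 4.43e-09) and SLC25A29 at -0.78 (adjusted p = 0.000216), while SLC25A11 at 0.30 (adjusted p = 0.0117) and SLC25A24 at -0.44 (adjusted p = 0.0114) no longer passed. In this fit 9 members were called against HUWE1-P, since SLC25A3, SLC25A4, SLC25A22, SLC25A28 and SLC25A30 passed and SLC25A1 and SLC25A5 did not, and 4 were called against HUWE1-WT, where 16.5 and 15.6% of all genes were called.

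**Figure D4:**
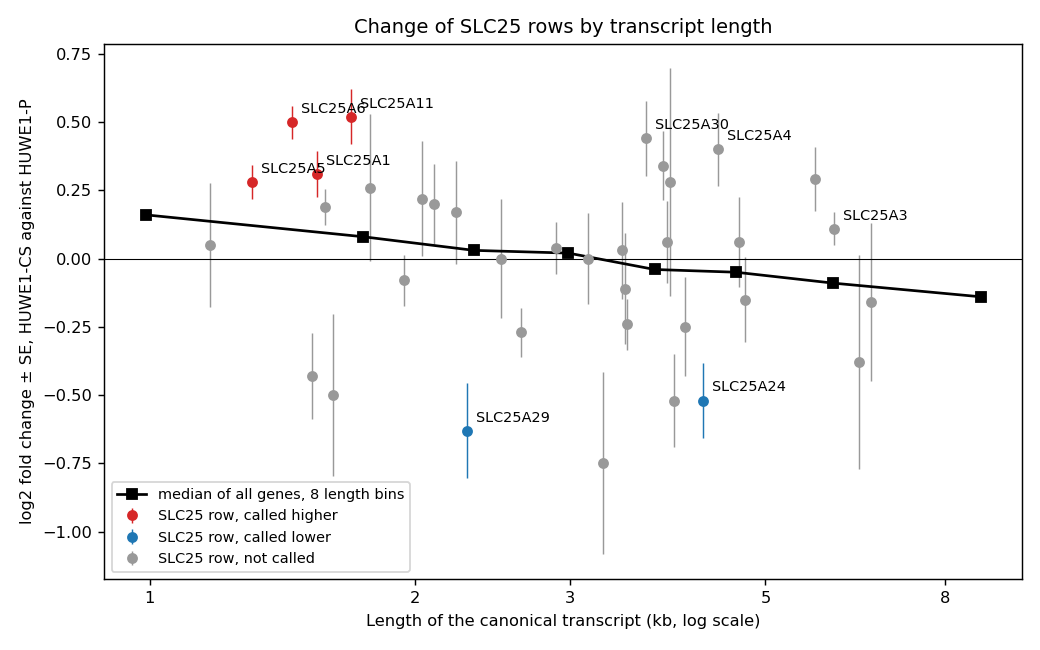
Log2 fold change in HUWE1-CS against HUWE1-P cells (vertical axis, ± SE) of 36 SLC25 rows against the length of their canonical transcript (horizontal axis, kb, log scale), with the median of all genes in 8 length bins as black squares. The median of all genes goes from 0.16 to -0.14 with length, and the 4 red points called higher sit at the short end, above the black line.

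Genes that work with the carriers were counted from lists typed from general knowledge. The malate-aspartate shuttle works through SLC25A11 and the aspartate/glutamate carriers. Of its 4 enzymes, 2 were called higher against HUWE1-P, where 8.46% of all genes were, and 0 lower. The 2 were MDH2 at 0.41 (adjusted p = 5.30e-07) and GOT2 at 0.26 (adjusted p = 0.00324). MDH1 at 0.25 (adjusted p = 0.0103) and GOT1 at 0.15 (adjusted p = 0.236) were not called. Against HUWE1-WT, MDH2 alone passed, at 0.29 (adjusted p = 0.000494), where 7.42% of all genes were called higher. These 4 enzymes had means of 207 to 679 counts. Of the 4348 genes with a mean of at least 100 counts, 633 were called higher against HUWE1-P and 547 against HUWE1-WT. Values with the length trend removed are not given for these enzymes. Of 10 components of the TIM22 import route, 1 was called against HUWE1-P, where 17.0% of all genes were. It was AGK, an acylglycerol kinase that is also a TIM22 subunit, higher at 0.48 (adjusted p = 0.00651). Against HUWE1-WT 0 were called, where 15.5% of all genes were. In that comparison 2 were at an unadjusted p under 0.05 in edgeR, where 35.0% of all genes were. Of 3 family proteins with other symbols, 1 was called higher in both comparisons, where 8.46 and 7.42% of all genes were. It was MTCH1, an outer membrane protein, at 0.27 (adjusted p = 0.00544) and 0.27 (adjusted p = 0.00638), while MTCH2 and UCP2 were not called. None of the 3 outer membrane channels VDAC1, VDAC2 and VDAC3, through which metabolites reach the carriers, was called by edgeR, DESeq2 or limma-voom. In edgeR 0 of them had an unadjusted p under 0.05 in either comparison, where 36.1 and 35.0% of all genes did. Their log2 fold changes were 0.03 to 0.05 against HUWE1-P and 0.05 to 0.10 against HUWE1-WT. Of 15 other inner membrane carriers and channels, 0 were called against HUWE1-P, where 17.0% of all genes were. In edgeR 6 were at an unadjusted p under 0.05 there, as were 36.1% of all genes. Against HUWE1-WT 1 was called, where 15.5% of all genes were. It was SFXN1, a serine carrier, lower at -0.31 (adjusted p = 0.00158). Of the genes in these lists, DESeq2 called MDH2 alone, in both comparisons, beside 9.59 and 8.79% of all genes.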

How the data were processed

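RNA was sequenced from 9 HCT116 libraries, 3 of each line, grouped and numbered by their labels. Per the study's methods, polyadenylated RNA was sequenced with single-end reads, which the authors demultiplexed with bcl2fastq 2.20, trimmed with Skewer and mapped to hg19 with STAR 2.5.4. They deposited raw counts per gene for 11350 genes, with no normalization. The counting tool, its annotation and its use of strand are not given in the sources used here. The authors' deposited tables of edgeR 3.26.8 comparisons (fold changes, F and p-values) were not used.

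Counts were scaled by TMM and tested in R 4.3.3 with edgeR 4.0.16 (glmQLFit, earlier estimator, and glmQLFTest) on all 9 libraries, with line as the sole factor. P-values were adjusted by Benjamini-Hochberg over all 11350 genes, and genes were called at an FDR of at most 0.01. No gene of the deposited table was filtered out. That table held no gene with a total under 41 counts over all libraries, and shares of all genes are shares of it. Some family members have no row, as 7 of 9 amino acid carriers listed had one. The 147 genes without a symbol (0.505% of counts) carry Entrez identifiers and were kept. SE is the log2 fold change divided by the root of F. Levels are TMM-normalized CPM. Replicate pairs differed by more than sampling noise (chi-square per degree of freedom 1.16 to 1.65), and intervals cover these libraries only. Positions are from GENCODE on GRCh37. Members were named if called in any comparison, if among the 3 with most counts, if nearest to the limit without a call, or if close relatives of a called member, and the rest are given by range or group, except 1 member that is counted but not reported here. Members and lists were chosen with earlier results of these data known. The edgeR fit was also run on simulated counts with a common dispersion and no length trend. That setting is simpler than these data and cannot vouch for their calls.

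Alternatives were DESeq2 1.42.0, limma-voom (limma 3.58.1), other scaling (RLE, total counts), only genes with 10 or more counts in every library, separate fits of each pair of lines, robust estimation, the present estimator, a replicate block, removal of a smooth length trend (11058 genes with a length), each library left out in turn, and an FDR of 0.05.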

Additional observations from a re-analysis of the deposited data

How the results depend on the processing

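Of the 20 other analyses run for each member and comparison, DESeq2 gave 3 called members against HUWE1-P and 3 against HUWE1-WT in HUWE1-CS cells, in place of 6 and 6, and removal of the length trend gave 9 and 4. DESeq2 called fewer genes in general, 1088 and 998 of all genes in place of 1934 and 1759. The fit with the length trend removed called 1874 and 1776 of all genes. At an FDR of at most 0.05 there were 14 members against HUWE1-P and 8 against HUWE1-WT, beside 26.4 and 24.4% of all genes. Leaving out each library in turn gave 4 to 7 members in HUWE1-CS against HUWE1-P, 4 to 6 in HUWE1-CS against HUWE1-WT and 0 in HUWE1-WT against HUWE1-P cells. The shares of all genes called in those fits were not counted. Whether the members lost calls more than other genes is therefore not known. SLC25A25 in HUWE1-CS against HUWE1-P cells, 0.03, ranged from -0.09 to 0.17 when libraries were left out. SLC25A28 in HUWE1-CS against HUWE1-WT cells, 0.00, became -0.02 by total counts and -0.07 with the length trend removed, alone or with the replicate block, and ranged from -0.09 to 0.11 when libraries were left out. The cause of these changes was not tested. Correlations of deviations between libraries of the same number ran from -0.0679 to 0.143, and those between libraries of different numbers from -0.15 to 0.0759. The ranges overlapped, but the highest values, 0.143 and 0.126, were between HUWE1-WT and HUWE1-CS libraries of the same number. A weak pairing by number is therefore not excluded. The replicate block kept the counts at 6, 6 and 0. Depth limits the 26 members with a mean under 100 counts.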
